A study of Mus musculus with 6 samples.

Results

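Mitochondria make few of their own proteins and import the rest from the cytosol through membrane complexes. The set described here comprises nuclear genes for 10 subunits of that machinery, of which 9 had a probe on the arrays, against 17865 genes named on them in all. All probes annotated with a member's symbol were taken, which gave 11 of 31769 probes. No probe used here carried the name Timm8b, so that gene was not analysed here. Members were divided into small subunits (Timm8b, Timm9, Timm10, Timm13 and Tomm7) and others (Timm17a, Timm23, Timm44, Tomm20 and Tomm70a). The set and its division were proposed with earlier results of these arrays known, so the ratios of the members are a description. Counts of calls over them stand beside the same counts over all probes, and nothing is inferred from them.

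The cells were MN9D, a mouse line with dopaminergic traits, transfected with pcDNA3.1(-)-Lmx1a or, as control, with the empty vector pcDNA3.1(-). Carrier plasmid pBluescript SKII(+) was added in the transfections, with 6 ug of the Lmx1a vector. The Lmx1a protein is a LIM homeodomain factor needed to specify dopaminergic neurons of the midbrain, here expressed transiently from a plasmid in a mixed cell population. Lmx1a RNA formed 3 pools, each from 3 dishes of 10 cm, and all were compared with the same pool of RNA from 9 control dishes. Every Lmx1a pool was hybridised on a pair of 2-colour arrays, once labelled with Cy5 and once with Cy3, and the mean of the pair counts as 1 replicate (n = 3 from 6 arrays). A ratio is the log2 of Lmx1a over control signal, so negative values mean less signal in Lmx1a cells. The control pool is 1 sample, so its own spread is not in any error given, and nothing states that the Lmx1a pools came from separate transfections. In such bulk RNA, fewer cells with a transcript and less transcript per cell cannot be told apart.

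The Lmx1a probe itself had a mean log2 ratio of 2.49 ± 0.68 (SD, n = 3) and was above 0 on 6 of 6 arrays. The dimmest array, replicate 1 with the Lmx1a pool in Cy3, gave the lowest Lmx1a ratio, 0.93. It showed 49.2% of probes above background in that channel, and the others showed between 60.1% and 67.7%. Of 10 dopaminergic markers, 4 (Th, Ddc, Slc18a2 and Nr4a2) were detected on all 6 arrays and 4 (Slc6a3, Pitx3, Foxa2 and Aldh1a1) on none. Among markers of other cell types, 3 of 5 for astrocytes, 3 of 4 for oligodendrocytes, 2 of 4 for microglia and leukocytes and 1 of 5 for fibroblasts were detected on all 6 arrays. Of all 17865 genes, each counted by its brightest probe, 9356 were so detected. Further probes of Aldh1l1, Slc1a2 and Mobp, markers counted here as detected, were above background on no array. Nothing about cell identity is read from these counts. Over all probes, limma's fit of the 3 replicates called 0 of 31769 at an adjusted p of 0.05 (0%), with 3743 (11.8%) at an unadjusted p of 0.05. A fit of the 6 single arrays with a replicate block and a dye term called 333 (1.05%), of which 238 were lower in Lmx1a cells (0.749% of all probes). The Lmx1a probe was not called in the first of these fits (limma adjusted p 0.0779) and was called in the second (0.0121). Not passing the fit of 3 replicates is therefore no evidence of an unchanged level.

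Precursors cross the outer membrane through the TOM complex. Tomm20 and Tomm70a encode its receptors, Tomm20 for presequences and Tomm70a for internal signals of hydrophobic precursors, while Tomm7 is a small subunit that in yeast modulates assembly of the complex. In the intermembrane space, Timm9 with Timm10 and Timm8 proteins with Timm13 form soluble chaperone rings that escort hydrophobic precursors. Timm23 and Timm17a form the core of the presequence translocase of the inner membrane, and Timm44 tethers the matrix Hsp70 motor to it. Many genes of mitochondrial proteins carry sites for ETS factors such as GABP, or for NRF1, near their starts.

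The 250 bases upstream of the start were available from RefSeq (GRCm38.p6) for 9 of the 10 members, Tomm7 being the exception. They were searched on both strands for motifs of both factors and for the LIM homeodomain core, because Lmx1a is the manipulated factor. The ETS motif CCGGAAG was found in 4 of the 9 windows (Timm8b, Timm10, Timm23 and Tomm70a), against 6.91% of all 32851 promoter windows of this length. The sequences of the 3 of these genes that had a probe are printed because their ratios, given further on, spanned the range of the set. Each reads 5′ to 3′ on the gene's own strand and ends at the base before the start, with the ETS motif or its reverse complement in capitals. The positions are chr2:84826771-84827020 (+) for Timm10, chr14:32201892-32202141 (-) for Timm23 and chr16:57121464-57121713 (+) for Tomm70a.
Timm10: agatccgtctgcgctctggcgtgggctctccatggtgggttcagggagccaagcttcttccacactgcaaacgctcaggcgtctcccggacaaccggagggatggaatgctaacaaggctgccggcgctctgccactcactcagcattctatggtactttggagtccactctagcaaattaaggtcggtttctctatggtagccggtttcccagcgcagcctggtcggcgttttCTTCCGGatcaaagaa
Timm23: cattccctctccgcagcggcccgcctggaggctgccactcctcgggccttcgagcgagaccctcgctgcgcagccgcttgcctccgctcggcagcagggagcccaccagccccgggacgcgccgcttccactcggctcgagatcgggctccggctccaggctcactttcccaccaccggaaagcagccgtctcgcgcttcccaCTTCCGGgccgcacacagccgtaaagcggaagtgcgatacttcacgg
Tomm70a: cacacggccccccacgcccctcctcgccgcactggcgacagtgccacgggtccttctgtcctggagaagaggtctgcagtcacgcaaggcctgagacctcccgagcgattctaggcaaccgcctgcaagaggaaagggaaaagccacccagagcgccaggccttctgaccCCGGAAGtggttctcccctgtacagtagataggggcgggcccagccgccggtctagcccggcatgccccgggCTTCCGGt

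The first of these held 1 ETS motif, beginning 16 bases before the start, the second 1, at 47, and that of Tomm70a 2, at 80 and 8. The homeodomain core TAATTA, present in 4.84% of all windows, was in 0 of the 9. The NRF1 motif (GCGC, any base, then TGCGC; 3.74% of all windows) was in Tomm20 alone of the 9, the E-box CACGTG (6.02%) in Timm9 and Tomm20, and CCAAT (33.8%) in Timm17a and Timm44. The YY1 motif AAGATGG (4.49%) was in 0. No motif overlapped another in the printed sequences. A match describes these letters only and is not evidence of binding.

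Each of the 11 member probes was above background on all 6 arrays. By mean ratio 9 of the 11 probes lay below 0, against 47.4% of all probes detected on 6 arrays. By gene, represented by its brightest probe, it was 8 of 9 against 48.5% of all genes. On every one of the 6 arrays, 2 member probes (Timm10 and Tomm7) were below 0, against 2.61% of all probes and 4.35% of those detected on 6 arrays. None of the 11 passed limma's fit of 3 replicates (background 0%, with 6 of the 11 at an unadjusted p of 0.05 against 11.8%). In the replicate block fit, Timm10 and Tomm7 were called lower and no other member was, with 0.749% of all probes called lower. Without the dimmest array both calls were lost (limma adjusted p 0.0872 and 0.0674), while the mean ratios stayed close, at -0.14 for Timm10 and -0.14 for Tomm7. Since the ratios chose the members, nothing is read from these shares.

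Among the chaperones of the intermembrane space, Timm10 had the lowest mean ratio of the set, -0.16 ± 0.082 (SD, n = 3), or a ratio of 0.896. In the orientation with Lmx1a in Cy5 it gave -0.19, -0.17 and -0.075 for replicates 1, 2 and 3, and the swapped arrays gave -0.28, -0.16 and -0.072. All 6 arrays were below 0, both orientations gave nearly the same value in each pool apart from replicate 1, and replicate 3 was the nearest to 0 in both dyes. Background-subtracted brightness of this probe over the arrays lay between 341 and 1149 scanner units for Cy5, and for Cy3 between 144 and 573. Without replicate 1 the mean was -0.12, and without replicate 3 it was -0.20.

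Timm9, the partner of Timm10 in the same ring, differed in sign between the dye orientations. Its brighter probe gave -0.25, -0.24 and -0.079 with Lmx1a in Cy5, but 0.048, 0.058 and 0.081 with Lmx1a in Cy3. The second probe gave -0.090, -0.067 and -0.11 in the first orientation and 0.21, 0.097 and 0.048 in the swapped one. On both probes the 3 arrays of one orientation lay below 0 and the 3 of the other above it, a split seen on 15.6% of probes detected on 6 arrays. Replicate means were -0.10, -0.088 and 0.0011 for the brighter probe, with a mean of -0.063 ± 0.056 (SD, n = 3), and the second had a mean of 0.015 ± 0.047. On the brighter probe replicate 3 was the highest, as for Timm10, and on the second it was the lowest. Background-subtracted brightness of the second probe was low, between 24 and 137 scanner units for Cy5 and between 22 and 75 for Cy3. RefSeq also lists Timm9 as an older name of Timm13, and the probe sequences were not used here, so the identity behind the Timm9 probes rests on the array annotation alone.

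Timm13, of the other chaperone ring, had a mean ratio of -0.011 ± 0.047 (SD, n = 3). For replicates 1 to 3 its Cy5 orientation gave -0.073, -0.043 and 0.037, followed by -0.0057, -0.031 and 0.050 in the swapped orientation. Replicate 3 was above 0 in both dyes and the other arrays were below. This probe was much dimmer than that of Timm10. Its background-subtracted brightness lay between 49 and 123 scanner units for Cy5 and between 29 and 67 for Cy3. Its mean was -0.029 with plain background subtraction and -0.061 with median centring. Tomm7, the small subunit of the outer membrane complex, had a mean of -0.15 ± 0.056 (ratio 0.903). In the Cy5 orientation it gave -0.10, -0.052 and -0.12, against -0.16, -0.15 and -0.30 in the Cy3 orientation. All 6 arrays were below 0, and in every pool the Cy3 orientation gave the lower value. The authors' values put it at -0.11 and median centring at -0.20.

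Of the outer membrane receptors, Tomm20 was measured by a pair of probes that behaved alike. The Cy5 orientation of the brighter gave 0.017, -0.033 and 0.086, and its Cy3 orientation -0.28, -0.19 and -0.054. For the second these were -0.055, -0.0036 and 0.10, then -0.24, -0.19 and -0.13. The arrays with Lmx1a in Cy5 scattered around 0 and those with Lmx1a in Cy3 all lay below it. The direction of this difference was opposite to that of Timm9, without its full split by orientation. Means were -0.075 ± 0.080 and -0.087 ± 0.069 (SD, n = 3). Tomm70a was the only member gene with a mean above 0, at 0.051 ± 0.022. Its arrays gave 0.031, 0.17 and 0.082 in the Cy5 orientation and 0.048, -0.013 and -0.0074 in the other, so the 2 negative values were close to 0.

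Among the subunits of the presequence translocase, Timm17a had a mean of -0.051 ± 0.025 (SD, n = 3). Its Cy5 orientation gave -0.10, -0.10 and -0.18, and the other -0.0081, 0.056 and 0.030, so the orientation means lay on opposite sides of 0. Its replicate means, which average both dyes, were -0.054, -0.024 and -0.075. Timm23, the channel subunit, had a mean of -0.0071 ± 0.054. Its arrays gave -0.020, -0.0012 and -0.076 in the Cy5 orientation and -0.076, 0.11 and 0.021 in the other, with values on both sides of 0. Timm44 had a mean of -0.058 ± 0.052, with 0.070, -0.20 and -0.061 in the Cy5 orientation and -0.11, -0.030 and -0.019 in the other. It was below 0 on 5 of 6 arrays, with a single positive value for replicate 1.

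**Figure D1:**
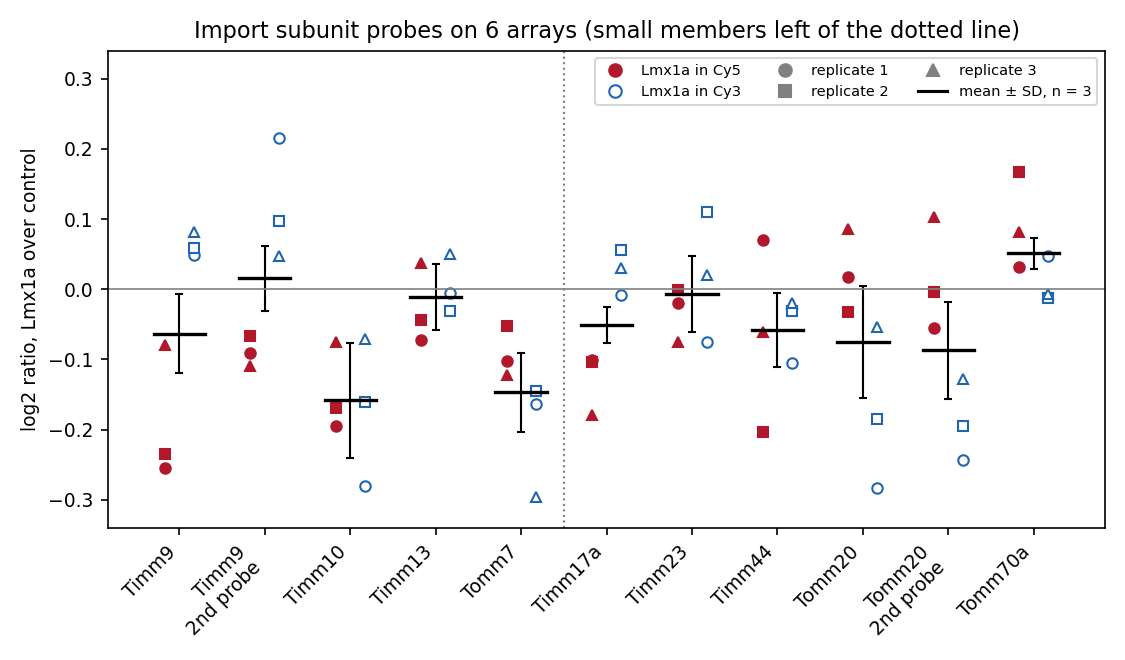
The vertical axis is the log2 ratio of Lmx1a over control signal for each of the 11 member probes, with filled red symbols for Lmx1a in Cy5, open blue ones for Lmx1a in Cy3, a symbol shape for each replicate and bars for the mean ± SD of 3 replicates. All 6 values lie below 0 for Timm10 and Tomm7, while those of Timm9 separate by dye orientation.

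Ordered by mean ratio of the brightest probe, the genes ran Timm10, Tomm7, Tomm20, Timm9, Timm44, Timm17a, Timm13, Timm23 and Tomm70a. Each gap between neighbours was smaller than the larger SD of the pair, except that between Timm23 and Tomm70a, which was 0.058 against an SD of 0.054. Over the genes' mean ratios, the median was -0.11 for small members, -0.051 for others and 0.00093 for all genes. Medians taken within replicates 1, 2 and 3 were -0.12, -0.094 and -0.036 for small members (SD 0.042, n = 3) and -0.048, -0.024 and -0.027 for others (SD 0.013), so -0.051 lay just outside the latter. The difference between the medians of gene means was -0.054. Within replicates it was -0.070, -0.070 and -0.0088 (SD 0.035), and it lay between -0.17 and -0.0033 on single arrays. The lower median of the small members rested on Timm10 and Tomm7, since Timm9 (-0.063) and Timm13 (-0.011) lay inside the range of the others, from -0.075 to 0.051. Without the dimmest array the difference was -0.10.

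Which dye a transcript was labelled with is a contrast that took no part in choosing the members, and it was tested on the same arrays with limma and Benjamini-Hochberg adjustment over all probes. Of the 11 member probes, 4 were dye-biased at an adjusted p of 0.05, beside 6.8% of all probes and 12.4% of those detected on 6 arrays. They were the pairs of probes of Timm9 and Tomm20, in opposite directions. The Timm9 ratio was lower by 0.25 and 0.21 with Lmx1a in Cy5 than in Cy3 (differences of -0.25 and -0.21, limma adjusted p 0.0201 and 0.0335), a lean to Cy3 relative to the other probes after loess. Tomm20 differed by 0.20 on each probe the other way (limma adjusted p 0.0423 and 0.0203), a lean to Cy5 relative to the other probes. Before normalization all 4 probes were brighter in Cy5 on all 6 arrays, as was the median brightness over all probes. For both genes the 2 probes agreed in direction. Timm17a differed by -0.15 (limma adjusted p 0.0558) and Timm10 by 0.024 (0.7), and neither passed. The number of member probes called fell to 1 without replicate 1, 0 without replicate 2 and 1 without replicate 3, and it was 0 with plain background subtraction. In 7 of the 11 probes the orientation means lay on opposite sides of 0, against 56.3% of probes detected on 6 arrays.

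**Figure D2:**
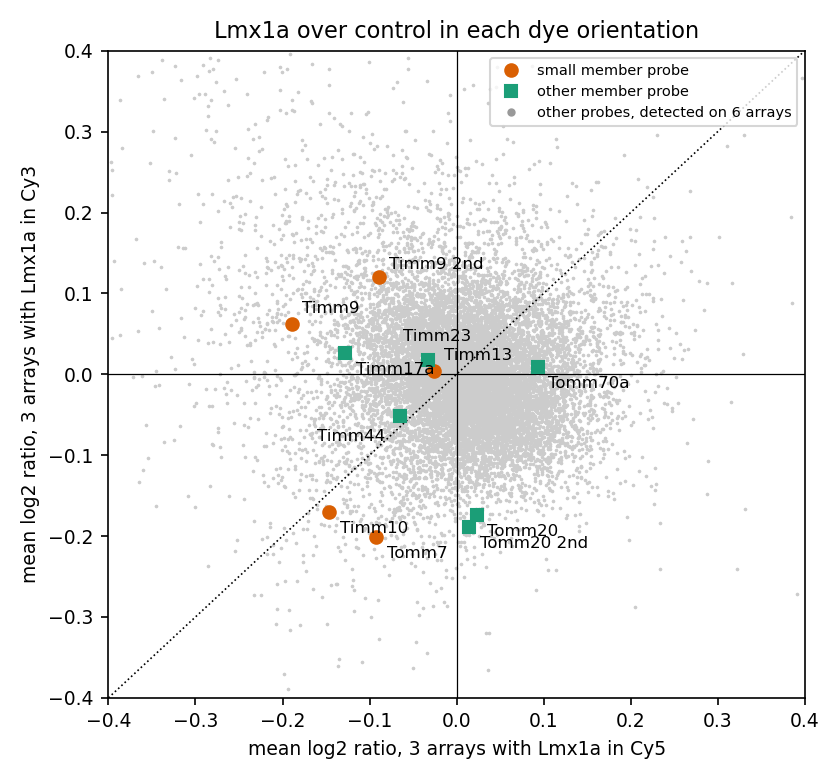
The mean log2 ratio over the 3 arrays with Lmx1a in Cy5 (horizontal) is plotted against that over the 3 arrays with Lmx1a in Cy3 (vertical), with small members as orange circles, other members as green squares and probes detected on 6 arrays in grey; the dotted line marks equal values. Timm10 (-0.15 and -0.17) lies near the line, Timm9 in the upper left and Tomm20 below the horizontal axis.

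Beside the members, 41 further genes of import and of protein handling after import were listed by role, of which 38 had a probe. None passed limma's fit of 3 replicates (background 0%) and none the replicate block fit (1.05%). At an unadjusted p of 0.05, 8 of the 38 were lower and 0 higher. At that level 5.56% of all probes were lower, and of 17865 genes 881 were lower and 1236 higher. By mean ratio 26 of 38 lay below 0, against 48.5% of all genes, with a median of -0.012. This median changed sign with Lmx1a in Cy5 alone, where it was 0.0032. Of the 38 genes, 3 were above background on no array (Tomm20l, Mipep and Immp1l). Mipep and Immp1l were nonetheless counted among the 26.

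In the outer membrane and its sorting machinery (TOM and SAM), 6 of 10 genes were below 0, against 48.5% of all genes. Their median was -0.016 (0.0032 with Lmx1a in Cy5 alone). Tomm5, another small TOM subunit, had a ratio of -0.083 ± 0.036 (SD, n = 3), below 0 on 5 of 6 arrays (limma adjusted p 0.216), and at -0.13 and -0.035 with Lmx1a in Cy5 and Cy3. Tomm22, the central receptor, was at -0.035 ± 0.0083, below 0 on 4 of 6 arrays, but its size depended on the normalization. It was -0.0068 with loess within print grids, -0.019 in the authors' values and -0.076 with median centring. Of the intermembrane space and TIM22 carrier translocase genes, 6 of 8 were below 0, and the median of -0.016 was 0.053 with Lmx1a in Cy5 alone. Timm10b, a small Tim that docks the chaperone ring to TIM22, gave -0.12 ± 0.046 (limma adjusted p 0.139), with -0.20 and -0.041 by orientation. Further Timm10b probes gave -0.069 and 0.016, so probes of this gene disagreed. Timm8a2, a relative of Timm8b, was at -0.095 ± 0.099, but at -0.25 with plain background subtraction and -0.046 without replicate 1.

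Of 10 genes listed for the presequence translocase and its motor, among which Timmdc1 (0.026) was counted, 6 were below 0. This compares with 48.5% of all genes, and the median of the list was -0.0089. This median was 0.0031 without the dimmest array and 0.0017 with Lmx1a in Cy5 alone, and below 0 in the other 10 of 12 settings. The J protein gene Dnajc15 had a ratio of -0.11 ± 0.066 (SD, n = 3), below 0 on 5 of 6 arrays (limma adjusted p 0.234). Pam16, its J-like partner at the motor, had -0.065 ± 0.055 on the brighter probe, with -0.26 with Lmx1a in Cy5 and 0.13 in Cy3. The second Pam16 probe gave -0.13 ± 0.0069 and was below 0 on 6 of 6 arrays (limma adjusted p 0.0799). Among genes for processing, insertion and matrix folding, 8 of 10 were below 0, with a median of -0.0072. Those 8 included Mipep (-0.0050) and Immp1l (-0.0053), which were above background on no array. Hspe1, the co-chaperonin, gave -0.13 ± 0.065 on the brighter probe (-0.0087 with Lmx1a in Cy3) and -0.19 ± 0.091 on the other, which was below 0 on 6 of 6 arrays. Hspd1, its chaperonin partner, chosen after its value was seen, was at 0.028 ± 0.027. The protease gene Lonp1 was at -0.11 ± 0.095, with -0.018 in the Cy5 orientation and -0.052 without replicate 2.

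**Figure D3:**
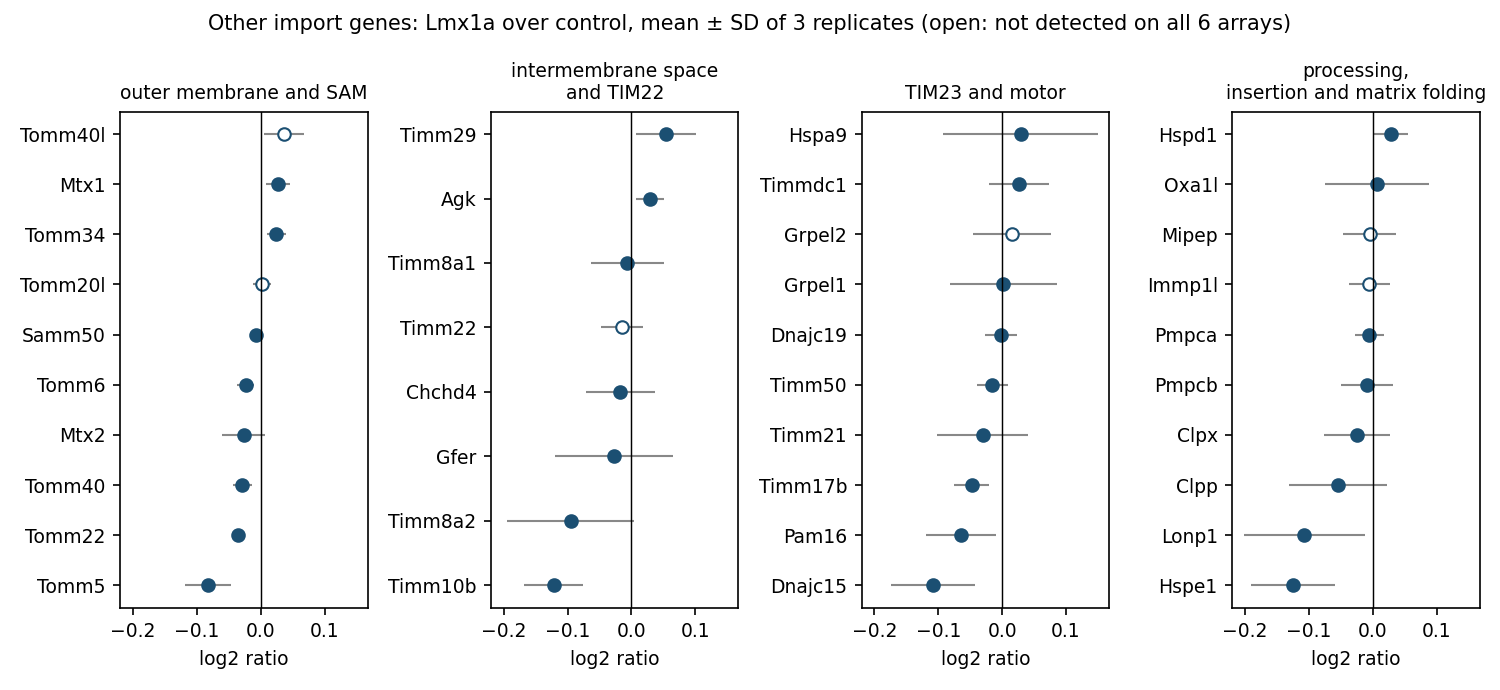
Points give the mean log2 ratio of Lmx1a over control (horizontal axis) for 38 other import genes in 4 role groups, with bars for the SD of 3 replicates and open points for genes not detected on all 6 arrays. Values lie between -0.13 and 0.054, with Hspe1, Timm10b and Dnajc15 among the lowest.

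Small proteins with paired CX9C motifs enter the intermembrane space by the same oxidative route, run by Chchd4 and Gfer, as the small Tims. By brightest probe, all 13 measured genes of the 14 listed had mean ratios below 0, from -0.18 to -0.042. Of all genes, 48.5% lay below 0. Cmc2 was at -0.10 on that probe, but its other probes gave 0.0045 and 0.015, the latter detected on 1 array only. The median of the 13 genes, -0.087, was negative in each of 12 processing settings. At an unadjusted p of 0.05, 9 of 13 were lower, against 5.56% of all probes and 753 of 9356 genes detected on 6 arrays. None of the 13 passed either adjusted fit (0% and 1.05% of all probes). Cox17, a copper chaperone of cytochrome oxidase, was at -0.18 ± 0.010 (SD, n = 3), below 0 on 5 of 6 arrays (limma adjusted p 0.0779). It gave -0.28 with Lmx1a in Cy5 and -0.086 in Cy3. Ndufb7, a complex I subunit, was at -0.10 ± 0.011, but with -0.27 in Cy5 and 0.073 in Cy3. Chchd4 itself was at -0.017 ± 0.055 and Gfer at -0.028 ± 0.092, both chosen after their values were seen.

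Related groups were taken by gene symbol, with Nduf symbols mainly for complex I subunits and assembly factors. Their median ratios were -0.068 over 43 Nduf genes, -0.028 over 78 mitochondrial ribosomal protein genes and -0.068 over 66 cytosolic ribosomal protein genes. Each median was negative in all 12 settings. The respective counts below 0 were 34, 56 and 58, against 48.5% of all genes. Taken by symbol, the 78 included the pseudogene Mrpl48-ps (-0.014), which was among the 56. In the replicate block fit 10, 3 and 14 genes were called lower, with 0.749% of all probes and 76 of 17865 genes lower. Of the CX9C list, 4 members are complex I genes, so these groups overlap. Values of the small members, from -0.16 to -0.011, lay within the range of each of the latter groups, and Timm13 alone lay above that of the CX9C genes. No difference between the import genes and these groups was tested, since the members were chosen on this contrast. Protein or transcript length was not analysed here.

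**Figure D4:**
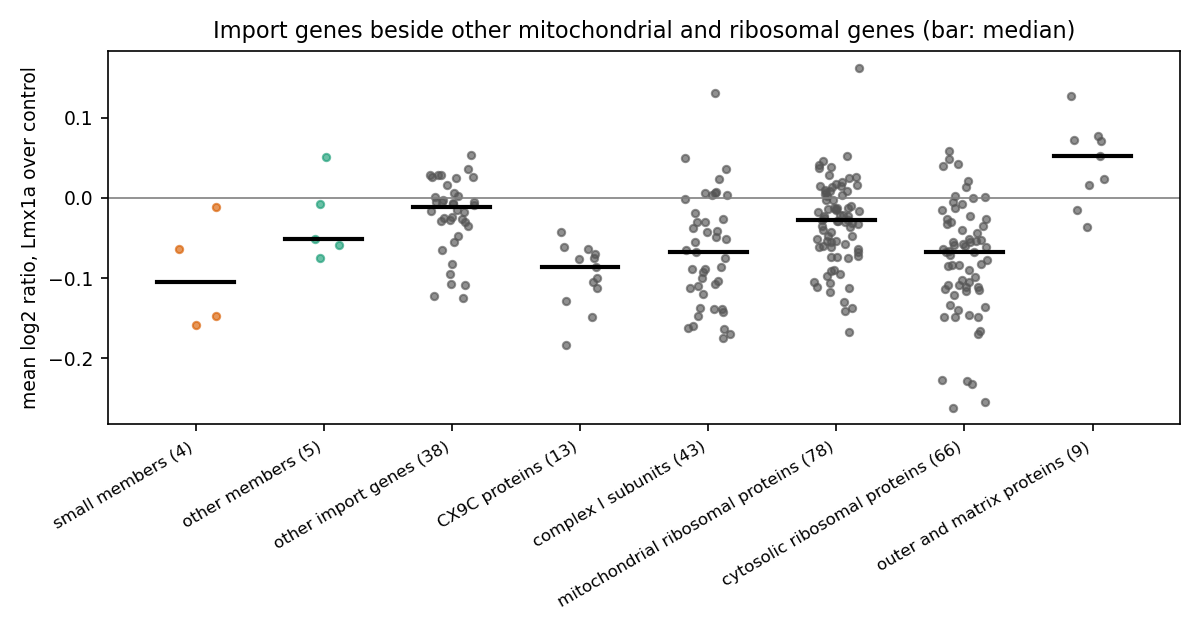
The vertical axis is the mean log2 ratio of Lmx1a over control and each point is a gene (brightest probe), with the number of genes in brackets and a bar for the group's median. The small members (median -0.11) overlap the CX9C, Nduf (labelled complex I subunits) and ribosomal protein genes, and the outer and matrix proteins have a median of 0.052.

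Across 13 settings of the processing, Timm10 stayed between -0.20 and -0.12, Tomm7 between -0.20 and -0.092 and Timm44 between -0.11 and -0.029. Tomm70a was above 0 in each of them, from 0.0092 to 0.093. The other genes crossed 0 in at least 1 setting. Timm9 ranged from -0.19 to 0.062 and Tomm20 from -0.17 to 0.023, with their extremes in single dye orientations. Timm13 ranged from -0.061 to 0.0045 and Timm23 from -0.038 to 0.018.

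**Figure D5:**
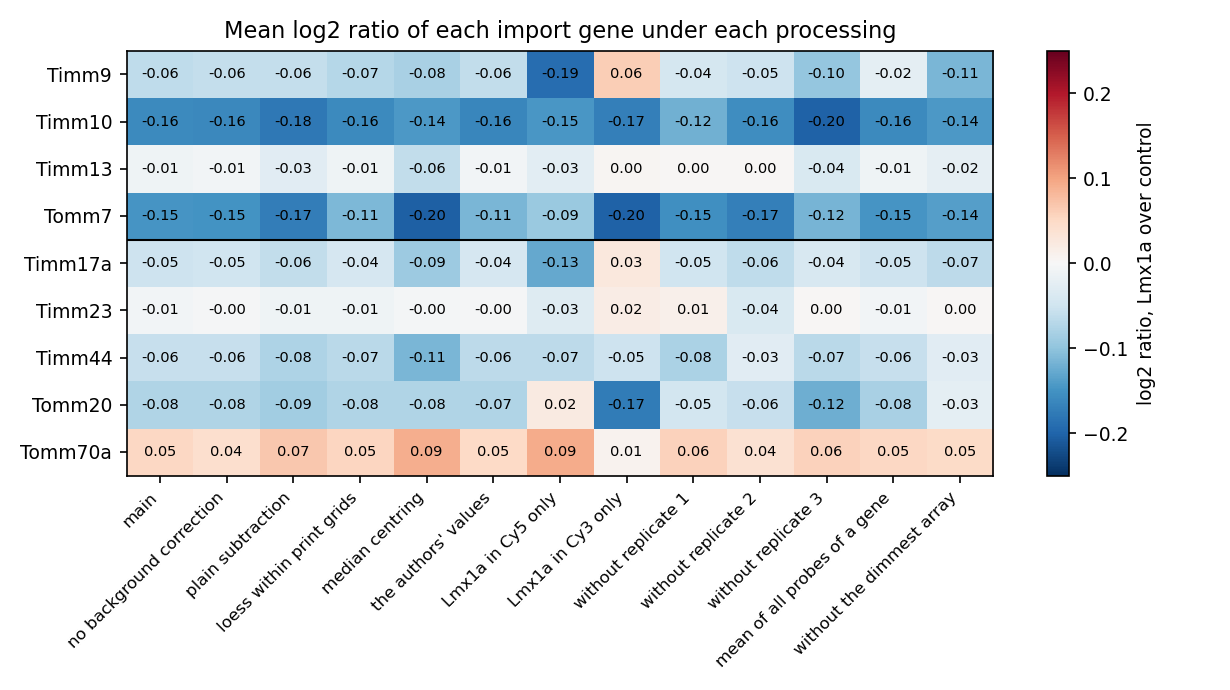
Colour and number give the mean log2 ratio of Lmx1a over control of each member gene (rows, small members above the line) under each of 13 processing settings (columns; the first is the one reported). Timm10 and Tomm7 are negative throughout, while Timm9, Timm13, Timm17a, Timm23 and Tomm20 have opposite signs in the 2 dye orientations.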

How the data were processed

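Arrays read in 2 colours of 34992 spots in 48 print grids compared 3 pools of Lmx1a RNA with 1 control pool, each in both dye orientations. The deposited scanner tables hold, per the file headers, the linear intensity of each spot as the mean of its pixels, with the median and SD of its background. Neither scanner nor software is named in the labels or headers used here. A second table deposited by the authors holds log2 ratios, which correlated at 0.996 to 0.999 with a loess fit within print grids of unsubtracted signals, turned to Lmx1a over control, with column medians from -0.0042 to 0.0050. Its scale, centring and direction were read from the values only, and it served as an alternative.

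Control spots (3223) had weight 0 and were left out, leaving 31769 probes. Of 26000 probes with a gene name, 2865 names were updated through RefSeq. Background was corrected by normexp (offset 50) and ratios by loess (span 0.3). The 2 arrays of a pool were averaged and tested with limma 3.58.1 in R 4.3.3. Detection required a signal 2 background SDs above background in either channel. Pools are paired by design: after removal of orientation means, arrays of 1 pool correlated at 0.038 to 0.19 across probes. The block fit used a dye term (consensus correlation 0.0684). The number of arrays limits the precision. The procedure was tested on simulated data with independent noise. A pass was required only for planted changes larger than that of any member, so it gives no support for changes of the members' size. Alternatives changed the background correction, normalization, detection filter, variance prior, probe choice, dye orientations and arrays used. A gene is represented by its brightest probe. The members and all gene lists were chosen with earlier results of these data known. Named were all members and, per list, up to 4 genes past the block fit or else the 2 with the smallest p, plus further probes of these.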

Additional observations from a re-analysis of the deposited data

Results flagged for a closer look

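The log2 ratio of 4 member probes differed between dye orientations in limma's test. The difference, Lmx1a in Cy5 minus Lmx1a in Cy3, was -0.25 and -0.21 for the brighter and second probe of Timm9. For Tomm20 it was 0.20 on both probes (0.198 and 0.203). Beside these, 6.8% of all probes passed the same test. With 6 arrays a probe, no member probe had a single array far from the other 5.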

How the results depend on the processing

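The median of the small members moved by less than its replicate SD in all 14 alternatives run, between -0.13 and -0.081. The replicate block and the detection filter were among these and could not move it, since they left the gene values as they were. The median of other members was 0.0092 with Lmx1a in Cy3 only, opposite in sign, -0.032 with Lmx1a in Cy5 only, -0.075 with median centring, from -0.047 to -0.038 leaving out 1 replicate and -0.025 without the dimmest array (this setting was added after seeing the data). The difference between small and other members was -0.092 with Lmx1a in Cy3 only, -0.10 without the dimmest array and from -0.067 to -0.035 leaving out 1 replicate. In Cy3 only, 4 of 9 member genes lay below 0, with opposite signs for the members Timm9 (0.062), Timm13 (0.0045), Timm17a (0.026) and Timm23 (0.018) and, outside the set, for Pam16 (0.13), Ndufb7 (0.073) and Idh3a (-0.021). The replicate block left these means as they were and called 333 probes where the fit of 3 replicates called 0. That count was 342 without a dye term and 91 without the dimmest array, which shared 79 with the 333 (both chosen after seeing the data). Limma called 49 probes with median centring, 993 and 215 with Lmx1a in Cy5 or Cy3 only, where dye bias enters the ratio, 0 to 1 leaving out 1 replicate and 1 without the dimmest array. Dye-biased member probes numbered 0 with plain subtraction, 11 with median centring, which does not remove intensity-dependent dye effects, and 0 to 1 leaving out 1 replicate. Over all probes dye bias was called for 4261 without background correction, 1 with plain subtraction, 24782 with median centring and 503 to 1514 leaving out 1 replicate. Except where a construction is named, the cause was not tested. With 2 replicates left, the fits have fewer degrees of freedom.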

Other observations

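Regulators of mitochondrial biogenesis gave ratios on both sides of 0, with 4 of 9 above it, against 9201 of all 17865 genes. Of these 9 regulators, 0 passed either adjusted fit (0% and 1.05% of all probes). Their median, -0.0074, was below 0 in 6 of 12 settings, while the mean was 0.028. Genes for both subunits of the ETS factor GABP are named here by the rule of smallest p. Gabpa, the DNA-binding subunit, had a ratio of 0.15 ± 0.094 (SD, n = 3) on its brightest probe, above 0 on 5 of 6 arrays (limma adjusted p 0.217), with 0.11 and 0.0062 on the other probes. Gabpb1, its partner subunit, was at 0.087 ± 0.036, above 0 on 6 of 6 arrays (limma adjusted p 0.2), and at 0.16 with plain subtraction. Whether this bears on the genes with an ETS motif was not tested.

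Proteins of the outer membrane and matrix that are no import subunits had 7 of 9 genes above 0, against 9201 of all 17865 genes. Their median was 0.052, and -0.011 with Lmx1a in Cy3 alone. Mdh2, malate dehydrogenase of the citrate cycle, was at 0.13 ± 0.027 (SD, n = 3), above 0 on 5 of 6 arrays (limma adjusted p 0.101). It was 0.024 with median centring and 0.049 with Lmx1a in Cy5 only. Idh3a, a subunit of isocitrate dehydrogenase, was at 0.077 ± 0.019, with 0.17 in the Cy5 orientation and -0.021 in the Cy3 orientation. It was above 0 on 4 of 6 arrays, and its probe was dye-biased (limma adjusted p 0.0454).

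Among 9347 genes detected on 6 arrays, those most like the mean profile of the small members were Vmn2r28 (Pearson r 0.991), Mpv17l2 (0.977), Nop56 (0.966), Tctn3 (0.964) and Idh3b (0.963) over the 6 arrays. The arrays share the control pool and dye effects, and 37 genes exceeded 0.9, so these values only describe likeness.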
